A study of Bos taurus with 6 samples.

Results

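Transcripts of the glutathione S-transferases were examined in bovine blastocysts as the genes whose symbol in the deposited table was GSTP1, GSTCD, GSTO1, GSTK1, GSTZ1, GSTM1, MGST1, MGST2 or MGST3. Of these 9 symbols, 8 had at least 1 gene entry, and the 8 symbols took 11 of the 36075 entries of the table, because GSTP1 was listed under 2 and GSTM1 under 3 Ensembl identifiers. GSTO1 had no entry and was not analysed here. The embryos (Bos taurus) came from cumulus-oocyte complexes of slaughterhouse ovaries that were matured in vitro for 22 h with 1e-07 mol/L melatonin (the MT-treated group) or without it (the control group), fertilized, and cultured to the blastocyst stage without a further difference named between the groups. Each group had 3 libraries, each from a pool of 3 blastocysts. MT was present only during oocyte maturation, before these embryos existed, and all values describe whole blastocysts, in which fewer cells of a type and less RNA per cell cannot be told apart.

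Glutathione S-transferases join the thiol of glutathione to electrophilic compounds, among them products of lipid oxidation, so that they can be exported from the cell. The cytosolic enzymes (here pi, mu and zeta, as the omega member GSTO1 had no entry) are soluble dimers, and the kappa enzyme belongs to mitochondria and peroxisomes. The microsomal enzymes MGST1, MGST2 and MGST3 are membrane proteins of a separate family known as MAPEG. Blastocysts produced in vitro are exposed to oxidants in culture, and this enzyme family is part of the defence that uses glutathione.

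GSTP1 dominated these entries in both groups, and the remaining members moved in both directions. In MT-treated blastocysts the more abundant GSTP1 entry and MGST1 were higher, MGST2, MGST3, GSTCD and the less abundant GSTP1 entry were lower, and 2 GSTM1 entries appeared that were listed at 0 in every control library. Values were in TPM, which divide reads by gene length and by the library total and so can be set side by side between genes. A gene was tested on log2(TPM + 1) if it reached 1 TPM in at least 3 libraries, which 8 of the 11 entries did. All 8 passed the threshold (adjusted p under 0.05, limma with Benjamini-Hochberg adjustment over all 11953 genes tested), 4 higher and 4 lower in MT-treated blastocysts. This count says little about the family, because 95.7% of all tested genes passed, 61.6% as higher and 34.1% as lower. The groups did not overlap for any of the 8 entries, as for 96.1% of all tested genes. For a single gene, the smallest p-value that an exact two-sided permutation test of 3 against 3 libraries can give is 0.1.

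The median difference on the log2(TPM + 1) scale was -0.27 over the 8 tested entries and 1.12 over all tested genes. The second value depended on genes at or near 0 and on scaling, as it was -0.27 over the 5988 genes with at least 1 TPM in all libraries, and 0.04 over all tested genes after quantile normalization, where the 8 entries had a median of -0.29. After median centring the medians were 0.21 over the 8 entries and 1.597 over all tested genes, so the sign of the members' median also depended on scaling. Higher genes made up 64.4% of all called genes with the values as deposited and 51.1% after quantile normalization, which gives each library the same distribution. The libraries also differed in ways that were not particular to this family. Genes above 0 TPM numbered 8854 to 8953 in the control libraries and 14372 to 14408 in the MT-treated libraries, and TPM holds no counts, so the values themselves do not give the depth behind them. Of 8 trophectoderm markers tested, 6 were higher and 2 lower after MT with the values as deposited. CDX2 was listed at 0 in every control library, whereas TFAP2A fell from 36.1 to 0.490 TPM (group means). KRT8, the other lower marker, had 8695 and 6905 TPM (group means), a log2 difference of -0.33, smaller than the shift of -0.48 that median centring removed. Of 5 inner cell mass markers, 4 were higher, among them NANOG and LIN28A at 0 in every control library. POU5F1 was not called with the values as deposited (189.8 and 192.6 TPM, group means, adjusted p = 0.223 by limma). Its log2 difference of 0.02 was also smaller in size than that shift. The 5 hypoblast markers summed to 0.2 to 0.44 TPM in control and to 61.2 to 69.6 TPM in MT-treated libraries. The keratins KRT8 and KRT18 were abundant in all libraries, with at least 6756 and 2726 TPM. Of 7 cumulus and granulosa markers, TNFAIP6, PTX3 and INHA were at 0 throughout, and the sum of the 7, nearly all of it HSD3B1 and FSHR, was 149.9 to 157 TPM in control and 121 to 123 TPM in MT-treated libraries. Of 7 oocyte markers, 6 were at 0 throughout. The part of these differences in the results below was not tested.

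GSTP1, the pi enzyme, which is also known to bind and restrain stress kinases of the JNK family, was by far the most abundant member. The entry ENSBTAG00000051210 had 819, 806 and 826 TPM in control and 1072, 1067 and 1097 TPM after MT. All MT-treated values lay above all control values. The mean rose 1.32-fold, from 817 ± 10.02 TPM in control to 1079 ± 16.2 TPM after MT (SD, n = 3 each), with a log2 difference of 0.40 (standard error 0.02, adjusted p = 5.87e-07 by limma). Within its library this entry stood above 97.7% of the detected genes in control and above 99.0% in MT-treated blastocysts (mean of 3 libraries each).

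The other GSTP1 entry, ENSBTAG00000003548, went the opposite way. It had 32.7, 33.9 and 34.9 TPM in control and 0, 0.69 and 0.08 TPM after MT, a log2 difference of -4.83 (standard error 0.20, adjusted p = 8.18e-07 by limma). Among 1737 genes with a control mean of 20 to 50 TPM, 10.5% had a mean below 1 TPM in MT-treated blastocysts. In the RefSeq annotation of assembly ARS-UCD2.0, which is not the build of these files, the 2 GSTP1 loci are neighbours on 1 chromosome with 0 protein-coding genes between them. There the more abundant entry matched a gene named LOC281806 by gene number, and the less abundant entry matched the gene named GSTP1 by symbol. The name GSTP1 for both entries follows the deposited table. How reads from such neighbouring copies were divided is not known, which makes each entry uncertain on its own. The less abundant entry held 3.84%, 4.03% and 4.05% of the GSTP1 total in control and 0%, 0.0646% and 0.00729% of it after MT. When both entries were summed before the fit, an alternative chosen after seeing the data, GSTP1 was still higher in MT-treated blastocysts, with 851 ± 10.4 TPM in control and 1079 ± 16.0 TPM in MT-treated libraries (SD, n = 3 each) and a log2 difference of 0.34 (standard error 0.02, adjusted p = 1.26e-06 by limma).

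GSTM1, the mu enzyme, was listed at 0 in every control library under all 3 identifiers. ENSBTAG00000069913 reached 11.35, 10.52 and 12.04 TPM after MT (adjusted p = 5.01e-09 by limma). ENSBTAG00000058591 had 6.91, 6.38 and 4.94 TPM (adjusted p = 5.32e-07 by limma). ENSBTAG00000037673 was at 0 in the MT-treated libraries as well. Detection in 1 group alone was frequent at these levels, since of the 4448 genes averaging 5 to 20 TPM after MT, 47.5% had 0 TPM in all control libraries, and no fold change is given for these entries. The mu genes lie in a cluster of close copies, so the division of GSTM1 reads among its identifiers is also uncertain. In the same RefSeq annotation, ENSBTAG00000058591 matched LOC327709 and ENSBTAG00000037673 matched LOC783879 by gene number, and ENSBTAG00000069913 was not matched.

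**Figure D1:**
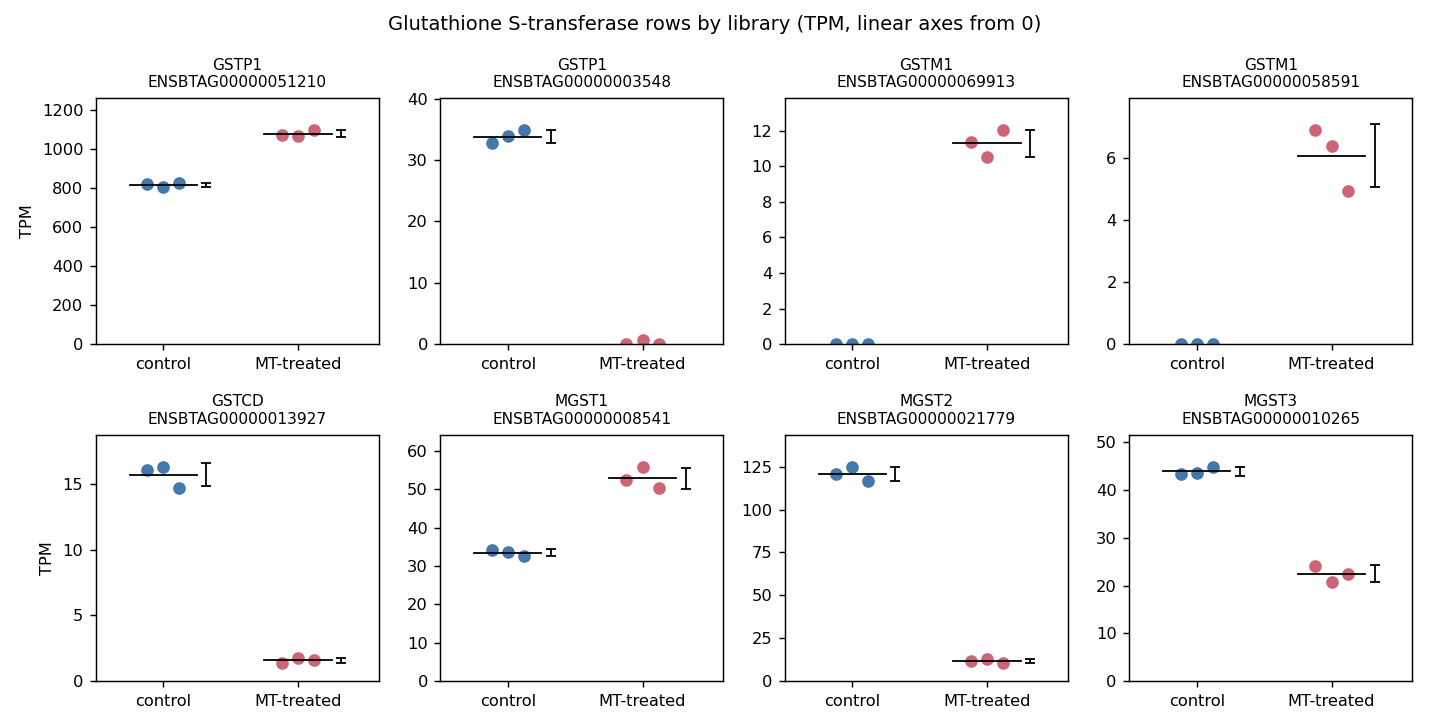
TPM of the 8 tested entries in each library (points), on linear axes from 0, with the mean (line) and SD (bar) of the 3 libraries in groups that have no value at 0. The groups do not overlap in any panel, and the more abundant GSTP1 entry lies at 806 to 826 TPM in control and at 1067 to 1097 TPM in MT-treated libraries.

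The zeta and kappa enzymes were at or near 0 in all libraries. GSTZ1, which isomerizes maleylacetoacetate in the breakdown of tyrosine, was listed at 0 in the control libraries and had 0.03, 0 and 0.03 TPM after MT. It was not tested, and in the fit without a filter on low values its adjusted p was 0.146 by limma. GSTK1 was listed at 0 in all 6 libraries. GSTCD, a protein with a domain like the C-terminal part of a glutathione S-transferase, had 16.1, 16.4 and 14.8 TPM in control and 1.38, 1.77 and 1.57 TPM after MT. Every MT-treated value was far below the lowest control value, and the means were 15.7 ± 0.863 TPM in control and 1.57 ± 0.195 TPM after MT (SD, n = 3 each; log2 difference -2.70, standard error 0.07, adjusted p = 7.76e-08 by limma). Of 848 genes with a control mean of 10 to 20 TPM, 18.4% had an MT-treated mean below 0.2 of the control mean.

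Among the microsomal enzymes, MGST2 gave way to MGST1 as the most abundant. MGST1 conjugates glutathione and reduces lipid peroxides at the endoplasmic reticulum and the outer mitochondrial membrane. It had 34.2, 33.8 and 32.5 TPM in control and 52.3, 55.9 and 50.3 TPM after MT. Its mean rose 1.58-fold, from 33.5 ± 0.892 TPM in control to 52.8 ± 2.82 TPM after MT (SD, n = 3 each), with a log2 difference of 0.64 (standard error 0.04, adjusted p = 1.31e-05 by limma).

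MGST2, which can also join glutathione to leukotriene A4, had 121, 125 and 117 TPM in control and 11.8, 12.7 and 10.6 TPM after MT. The groups lay far apart, and the control mean of 120.8 ± 4.14 TPM was 10.3-fold the MT-treated mean of 11.7 ± 1.06 TPM (SD, n = 3 each; log2 difference -3.26, standard error 0.07, adjusted p = 2.33e-08 by limma). Of 463 genes with a control mean of 100 to 150 TPM, 12.5% had an MT-treated mean below 0.2 of the control mean. MGST3, a further membrane enzyme of this family with glutathione transferase and peroxidase activity, had 43.3, 43.6 and 44.9 TPM in control and 24.2, 20.6 and 22.5 TPM after MT. Its control mean was 1.96-fold the MT-treated mean (log2 difference -0.94, standard error 0.06, adjusted p = 6.81e-06 by limma).

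The 3 MGST genes together summed to 198 ± 4.10 TPM in control and 87.0 ± 3.15 TPM in MT-treated blastocysts (SD, n = 3 each). Other MAPEG genes were not part of this sum. Of that sum, MGST2 held 60.9% ± 0.826 in control and 13.4% ± 0.772 in MT-treated blastocysts, MGST1 held 16.9% ± 0.328 and 60.7% ± 1.69, and MGST3 held 22.2% ± 0.842 and 25.8% ± 2.35 (SD, n = 3 each). MGST1 was thus the most abundant of the 3 after MT, while the sum of the 3 was lower.

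Over all 11 entries, the summed TPM was 1066, 1059 and 1070 in control and 1180, 1175 and 1199 after MT, a difference in means of 120.2 TPM. Without the 2 GSTP1 entries the direction was the opposite. The sum was then 214, 219 and 209 TPM in control and 108, 108 and 102 TPM after MT. GSTP1 took 79.9% ± 0.564 of the sum over the 11 entries in control and 91.1% ± 0.383 in MT-treated blastocysts (SD, n = 3 each). The other listed genes named GST, which are outside this sum, came to 67.6 ± 1.90 TPM in control and 61.0 ± 2.99 TPM in MT-treated libraries (SD, n = 3 each). Sums over chosen genes are given as descriptions, without a test.

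**Figure D2:**
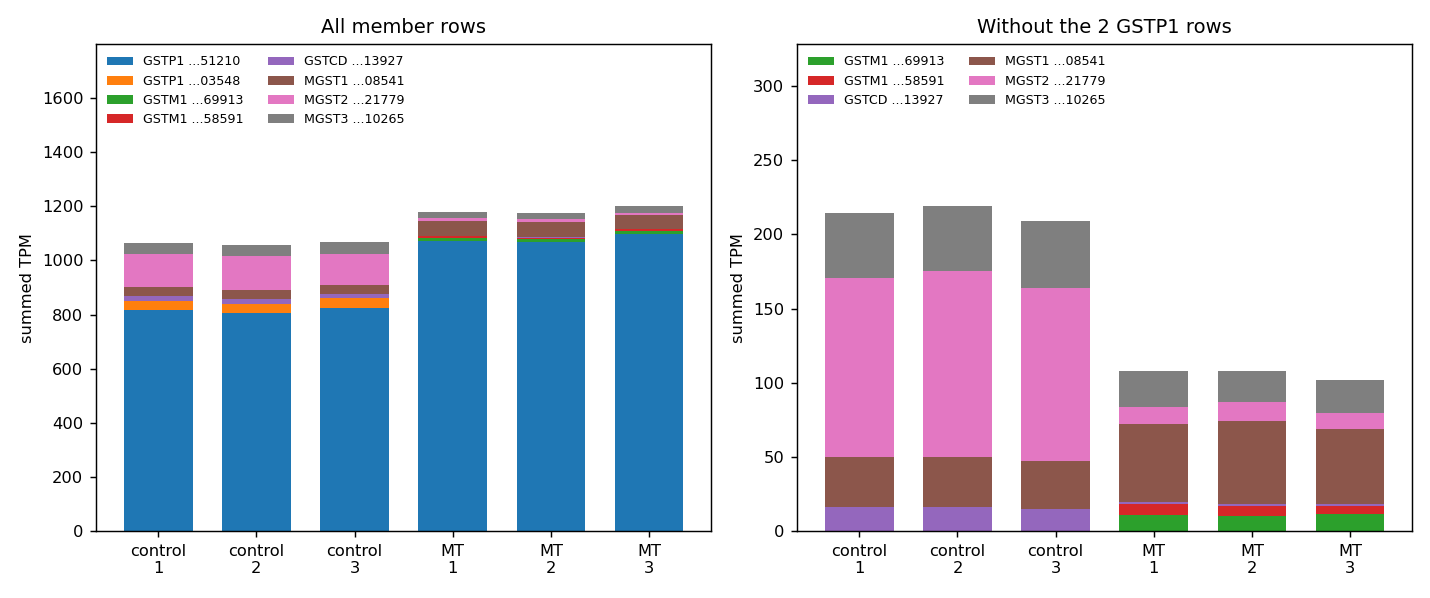
Summed TPM of the member entries in each library, stacked by entry (identifiers shortened to their last digits), for all members (left) and without the 2 GSTP1 entries (right). The whole sum is 1059 to 1070 TPM in control and 1175 to 1199 TPM in MT-treated libraries, whereas the sum without GSTP1 is 209 to 219 TPM in control and 102 to 108 TPM in MT-treated libraries.

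The order of the levels changed below GSTP1. In control blastocysts the order by mean TPM was the main GSTP1 entry, MGST2, MGST3, the less abundant GSTP1 entry, MGST1 and GSTCD, in which the less abundant GSTP1 entry and MGST1 overlapped and the other neighbours did not. In MT-treated blastocysts it was the main GSTP1 entry, MGST1, MGST3, MGST2, the GSTM1 entries ENSBTAG00000069913 and ENSBTAG00000058591, GSTCD, the less abundant GSTP1 entry and GSTZ1, in which MGST2 and the higher GSTM1 entry overlapped, as did the less abundant GSTP1 entry and GSTZ1, both below 1 TPM. The coefficient of variation between libraries was 1.23% for the main GSTP1 entry and 5.48% for GSTCD in control, the ends of the range for the 6 members detected there. After MT it reached 16.8% for GSTM1 ENSBTAG00000058591 among the members with a TPM of at least 1 in each library.

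The position of a member within its own library does not depend on how libraries are scaled. MGST1 stood above 59.3% of the detected genes in control and 84.9% in MT-treated blastocysts, and MGST2 above 85.9% and 52.2% (means of 3 libraries). MGST3 stood above 66.0% of the detected genes in control and 69.0% in MT-treated blastocysts, while its TPM was lower and more genes were detected in the MT-treated libraries. Among the 5988 genes with at least 1 TPM in all libraries, MGST3 stood above 52.4% in control and 42.4% in MT-treated blastocysts, MGST1 above 43.4% and 66.3%, and MGST2 above 79.3% and 24.0%.

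Scaling changed the size of several differences but no direction. Centring each library on the median of the 5988 genes with at least 1 TPM in all libraries removed a shift of -0.48 between the groups. Relative to that shift, the log2 difference was 0.88 for the main GSTP1 entry, 1.12 for MGST1 and -0.46 for MGST3, each more than 1.5 times larger or smaller than with the values as deposited. Quantile normalization gave 0.40, 0.89 and -0.87 for the same genes. All of these had an adjusted p under 0.05 by limma.

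**Figure D3:**
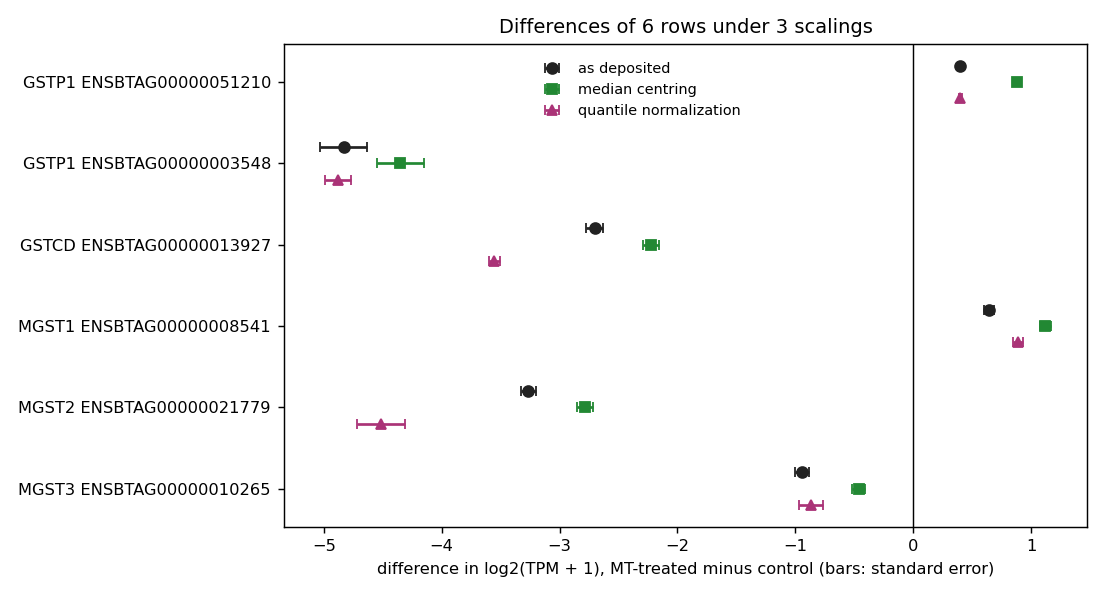
Difference in log2(TPM + 1) between MT-treated and control blastocysts (horizontal axis, bars are standard errors) for the 6 tested entries above 0 in control, with the values as deposited, after median centring and after quantile normalization. The main GSTP1 entry and MGST1 lie above 0 and the other 4 entries below 0 under each scaling.

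Genes most like a member were sought by the Euclidean distance of log2(TPM + 1) over the 6 libraries. Closest to the main GSTP1 entry were ATP5F1A, a subunit of mitochondrial ATP synthase (distance 0.12, 816 TPM in control and 1124 TPM in MT-treated blastocysts, group means), ARPC2 of the actin-nucleating Arp2/3 complex (0.13) and ATP6V0B of the lysosomal proton pump (0.32). The less abundant GSTP1 entry had the largest change among the members on the log2(TPM + 1) scale (in TPM the main GSTP1 entry changed most), and closest to it were COQ9, which acts in ubiquinone synthesis (distance 0.55, 40.3 and 0.283 TPM), TUBE1 (0.58) and ABHD6 (0.59). With 2 groups of 3 libraries, this likeness rests mainly on the 2 group means.

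Other genes of the family and of glutathione use were read from 6 lists, of which 65 entries were tested. After MT, 38 of them (58.5%) were higher and 21 (32.3%) were lower, shares close to the 61.6% and 34.1% of all tested genes, and 23 of the 38 were listed at 0 in every control library. After quantile normalization 36 of the 65 were higher (55.4%) and 28 lower (43.1%), beside 46.4% and 44.4% of all tested genes.

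The first list held other glutathione S-transferases and proteins with a related fold, of which 5 were higher, 5 lower and 1 not called among 11 tested. The alpha enzymes differed among themselves. GSTA3, which is known for its part in steroid synthesis, was listed at 0 throughout the control group and at 26.07, 21.98 and 25.29 TPM after MT. GSTA1 and the theta gene GSTT4 were likewise at 0 in control, with means of 13.8 and 8.36 TPM in MT-treated blastocysts. GSTA4, which conjugates the lipid peroxidation product 4-hydroxynonenal, fell from 67.6 ± 1.90 TPM in control to 14.4 ± 0.146 TPM after MT (SD, n = 3 each), a log2 difference of -2.15 (standard error 0.03, adjusted p = 4.11e-09 by limma). GSTA1, GSTT4 and GSTA4 were chosen after their values were seen. Of the 29 genes of this list, 23 had an entry, and the others could not be read. The remaining genes with an entry that are named GSTA, GSTM, GSTO or GSTT were at 0 in all libraries, except for GSTA5 with 0.08 TPM in 1 MT-treated library.

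Some proteins with the fold of a glutathione S-transferase but other known roles were abundant. CLIC1, an intracellular chloride channel protein, had 4127 ± 50.96 TPM in control and 4106 ± 62.8 TPM in MT-treated blastocysts (SD, n = 3 each). It was not called with the values as deposited (log2 difference -0.01, adjusted p = 0.640 by limma). CLIC4 fell from 474 ± 2.79 TPM in control to 305 ± 7.91 TPM after MT, and EEF1E1, a scaffold protein of aminoacyl-tRNA synthetases, fell from 169 ± 6.43 TPM in control to 94.0 ± 6.29 TPM after MT (SD, n = 3 each). EEF1G, a subunit of translation elongation factor 1, rose from 376 ± 4.95 TPM in control to 504 ± 5.04 TPM after MT (SD, n = 3 each). GDAP1, a protein of the outer mitochondrial membrane, had 6.71, 6.59 and 7.04 TPM in control and was listed at 0 in each MT-treated library.

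In the list of glutathione supply, 9 of 18 genes were higher and 6 lower. SLC7A11, the cystine transporter that brings in the limiting amino acid of glutathione, was listed at 0 throughout the control group and at 23.06, 21.95 and 21.03 TPM after MT. Of 14 enzymes that use glutathione, 9 were higher and 4 lower. HAGH, the second enzyme of the glyoxalase pathway, was listed at 0 throughout the control group and at 32.4, 28.3 and 29.2 TPM after MT. ADH5, which oxidizes S-hydroxymethylglutathione, fell from 159 ± 5.25 TPM in control to 24.9 ± 1.06 TPM after MT (SD, n = 3 each).

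Conjugate export and mercapturate formation had 8 of 9 entries higher and 1 lower, beside 61.6% and 34.1% of all tested genes. Of the 8, 5 were listed at 0 in every control library. ABCC5 was counted under each of its identifiers, with means of 2.12 and 2.13 TPM in MT-treated blastocysts. ABCC2, an exporter of glutathione conjugates, was among those 5, with 28.9, 32.6 and 39.1 TPM after MT. KYAT1, a cysteine conjugate lyase, fell from 696 ± 6.01 TPM in control to 393 ± 4.10 TPM after MT (SD, n = 3 each). Of 12 regulators and partner kinases, 6 were higher and 5 lower. MAP3K5, a stress-activated kinase, was listed at 0 throughout the control group and at 22.3, 20.1 and 19.4 TPM after MT, and MAPK9, a JNK kinase, fell from 51.5 ± 0.896 TPM in control to 1.23 ± 0.199 TPM after MT (SD, n = 3 each). In tyrosine breakdown, the pathway of GSTZ1, only TAT of 5 genes was tested. It was listed at 0 throughout the control group and at 27.8, 27.7 and 27.9 TPM after MT.

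**Figure D4:**
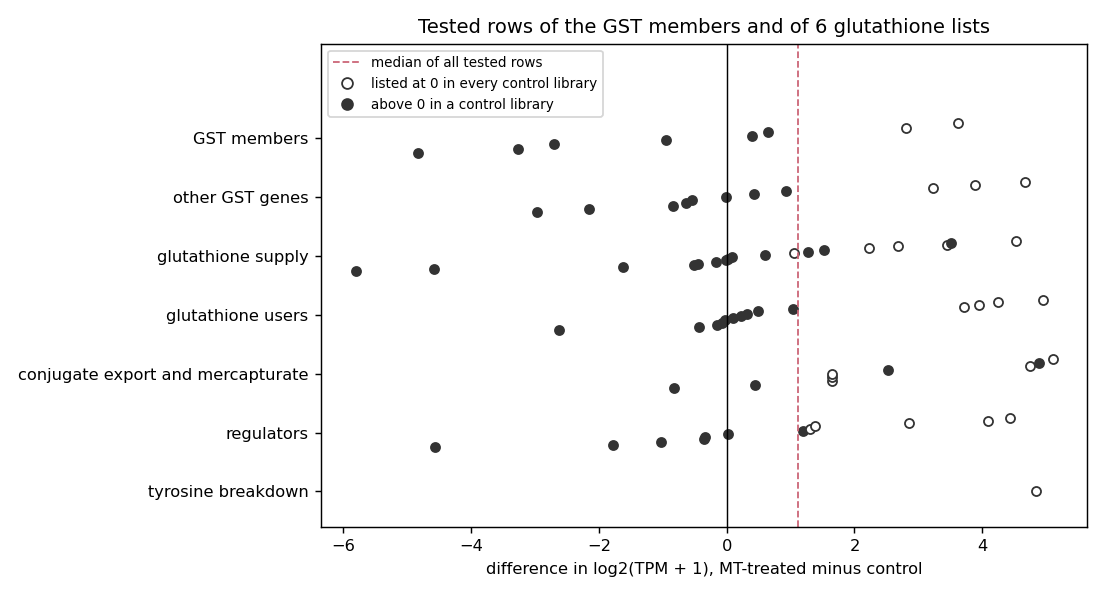
Difference in log2(TPM + 1) between MT-treated and control blastocysts for each tested entry of the members and of the 6 lists (points, open where the entry is listed at 0 in every control library). Points lie on both sides of 0 in each group but tyrosine breakdown, which has 1 point, and the dashed line marks the median of all tested genes, 1.12.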

How the data were processed

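RNA was measured in 3 control and 3 MT-treated libraries. The authors filtered reads, aligned them with STAR 2.7.9a and counted them with featureCounts (Subread 1.6.3); the build was ARS-UCD1.2 per the submitters' processing notes and ARS-UCD1.3 per the study's methods. Library chemistry is also named differently, as TruSeq in the labels and Smart-seq2 in the methods. The authors deposited TPM per gene, rounded to 2 decimals, and how counts became TPM is not given in the sources used here. TPM keeps no counts, and the sequencing depth per library, which the study gives in a supplement, was not used here, so counting error was not estimated.

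Groups and replicates came from the labels. Values were fitted as log2(TPM + 1) with limma 3.58.1 (lmFit, eBayes with trend; R 4.3.3) over genes with at least 1 TPM in at least 3 libraries, without a replicate block, and p-values were Benjamini-Hochberg adjusted. The fit was tested on simulated data. Sums, ranks and figures used Python 3.11.15, pandas 2.3.3, numpy 2.4.6 and matplotlib 3.10.9. The replicates came from independent production runs per the study's methods.

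Members and lists were chosen with earlier results of these data known, and the lists were written from general knowledge. Named from each list were the highest and lowest called log2 differences and, among other glutathione S-transferases, genes over 100 TPM in a group; genes closest in pattern were sought for the most abundant and the most changed member. One gene that this rule named is not reported here. The windows of TPM used as a reference for single members were chosen after their values were seen. RefSeq matched 10 of the 11 entries, by gene number or symbol, and was used only for neighbours and for the names it gives. The alternatives tried were no filter, a minimum of 5 TPM, a pseudocount of 0.1, quantile normalization, median centring, no trend, a replicate block and leaving out each library.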

Additional observations from a re-analysis of the deposited data

How the results depend on the processing

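Each of the 8 tested members kept its direction and its call under every alternative in which its own entry was tested. At a minimum of 5 TPM, GSTM1 ENSBTAG00000058591 was no longer tested, which left 3 members higher and 4 lower. The less abundant GSTP1 entry, summed with the other, became part of a GSTP1 total that was higher by 0.34 on the log2 scale. The fitted difference of GSTM1 ENSBTAG00000058591 was 2.81 with a pseudocount of 1, 5.93 with 0.1 and 0.29 after quantile normalization, and is no measure of size for a gene at 0 in control. The summed TPM differed by 120.2 TPM between the groups, by 161 TPM with each library rescaled to the same listed total, and by -108 TPM without GSTP1. Among detected genes, MGST3 differed by 3.01 percentile points and MGST2 by -33.6, and among genes with at least 1 TPM in all libraries by -9.96 and -55.3. After median centring 50 genes of the lists were higher and 12 lower, in place of 38 and 21, while over all tested genes the share higher went from 61.6% to 70.4% and the share lower from 34.1% to 25.4%. Leaving out 1 library moved the members' log2 differences little, for example to between 0.39 and 0.41 for the main GSTP1 entry and between -0.996 and -0.886 for MGST3. The depth of the libraries was not used here and TPM does not give it, which limits what a value of 0 can show.

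The study's methods state that the treatments were carried out side by side in each run, so control and MT-treated libraries may share production runs. The labels do not say that a replicate number marks 1 production run in both groups. Same-numbered libraries did not deviate together (correlations of -0.0115, -0.000679 and 0.0588 across tested genes, for replicates 1, 2 and 3), and only those numbered 3 correlated best with each other. With a replicate block, 4 members were higher and 4 lower, as without it, and 7379 of all tested genes were higher and 4082 lower, in place of 7367 and 4071.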

Other observations

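The table also describes LANCL1 and LANCL2, proteins related to bacterial lanthionine synthetases, as LanC like glutathione S-transferases, a name found after the member symbols were set. LANCL2 had 53.4, 52.2 and 51.3 TPM in control and 19.1, 18.9 and 19.0 TPM after MT, and it fell by 1.42 on the log2(TPM + 1) scale (standard error 0.03, adjusted p = 1.38e-08 by limma). LANCL1 was below 1 TPM in all libraries, with 0.03, 0.03 and 0.04 TPM in control and 0.23, 0.20 and 0.25 TPM in MT-treated libraries, and was not tested.

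HGD, which acts in tyrosine breakdown upstream of GSTZ1, was listed at 0 throughout the control group and at 30.9, 7.35 and 0 TPM after MT, so the MT-treated libraries did not share a level. HGD was not tested, because fewer than 3 libraries had at least 1 TPM.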
